A study of Mus musculus with 6 samples.

Results

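The miR-15, miR-16, miR-195 and miR-497 hairpins are described here in the adult mouse heart. Their members were taken as the sense entries of the count files whose name, before the arm, is Mir15a, Mir15b, Mir16-1, Mir16-2, Mir195 or Mir497, with both arms. This gave 11 of 1102 entries, from 6 hairpins in 3 genomic clusters. Small RNA libraries came from 6 wild-type male mice of the inbred strain C57BL/6J at 18 weeks of age, 1 library per heart, named hearts 1 to 6 by the number in the labels. All mice form 1 untreated group, so members are compared with each other within a heart and across hearts. The labels call the tissue whole heart while their protocol names the apex of the ventricles, so the part sampled is uncertain. Nothing in the labels names a litter, and the p-values below speak only for these samples. Permutation tests rest on the spread between them. Other tests rest on counting noise or on a spread pooled over hairpins, as stated with each.

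MicroRNAs (miRNAs) are short RNAs that are released from either arm of a hairpin (5p or 3p) and pair with messenger RNAs mainly through their seed, bases 2 to 8. The miR-15 family is known for repressing genes of the cell cycle and of cell survival, among them the anti-apoptotic gene Bcl2. In the heart the family, and miR-195 above all, is known for its rise after birth, when muscle cells of the heart stop dividing.

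The mature 5p sequences are shown because they define the family and limit how far its reads can be told apart. Sequences are those of RefSeq on GRCm38.p6, 5′ to 3′, with the seed in capitals.
miR-16-5p: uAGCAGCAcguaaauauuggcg
miR-195a-5p: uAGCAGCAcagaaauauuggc
miR-15a-5p: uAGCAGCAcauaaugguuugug
miR-15b-5p: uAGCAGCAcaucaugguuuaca
miR-497a-5p: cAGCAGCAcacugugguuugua
All 5 carry the same seed. miR-195a-5p differs from miR-16-5p at 2 of 21 positions, G10A and U11G, with positions counted from the 5′ end and the base of miR-16-5p given first. miR-15b-5p differs from miR-15a-5p at 4 of 22 positions (A12C, G20A, U21C and G22A), and the pair shares its first 11 bases. miR-497a-5p is closest to miR-15a-5p among the other 4, with 17 of 22 positions the same.

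The 3p arms carry different seeds, and those of the miR-16 copies identify the locus. They are shown for that reason, with the seed in capitals.
miR-16-1-3p: cCAGUAUUgacugugcugcuga
miR-16-2-3p: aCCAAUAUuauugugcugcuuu
miR-195a-3p: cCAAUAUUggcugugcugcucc
miR-15a-3p: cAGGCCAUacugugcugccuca
miR-15b-3p: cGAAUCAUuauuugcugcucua
The 2 miR-16 3p arms differ at 10 of 22 positions when aligned from their first base. miR-16-1-3p is closer to miR-195a-3p, from which it differs at 4 of 22 positions (G4A, A10G, G21C and A22C).

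The miR-16 hairpins show why the 5p reads cannot be placed. Below, capitals mark the mature 5p and 3p sequences.
Mir16-1: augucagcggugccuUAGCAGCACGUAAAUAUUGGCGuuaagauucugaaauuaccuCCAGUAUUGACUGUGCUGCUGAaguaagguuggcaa
Mir16-2: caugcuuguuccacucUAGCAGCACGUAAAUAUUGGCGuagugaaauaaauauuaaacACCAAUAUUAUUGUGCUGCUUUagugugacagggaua
Mir16-1 lies at chr14:61631880-61631972 on the minus strand and Mir16-2 at chr3:69009902-69009996 on the plus strand (GRCm38). The 5p sequence of 22 bases is the same at both loci. The loci share 0 bases before it and 1 base after it. A read within that run of 23 bases therefore matches both loci equally. How the authors placed such reads is not given in the sources used here.

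The clusters differ in their hosts. Mir15a (chr14:61632027-61632110, minus strand) and Mir16-1 lie 54 bases apart in Dleu2, a long non-coding RNA gene on the same strand. Mir15a is intronic, and Mir16-1 overlaps a Dleu2 exon by 13 bases. Mir15b (chr3:69009772-69009835, plus strand) and Mir16-2 lie 66 bases apart, intronic in the sense direction in Smc4, a condensin subunit needed for chromosome condensation. Mir497 (chr11:70234717-70234800) and Mir195a (chr11:70235042-70235135) lie 241 bases apart on the plus strand. No host gene on their strand is annotated, and the hairpin Mir497b covers Mir497 on the opposite strand.

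The name Mir497 in the files belongs to a different hairpin. Its coordinates and transcript are those of Mir497b (chr11:70234692-70234816), a hairpin annotated on the opposite strand of Mir497. The only Mir497 sense entry has the position of the mature miR-497b. It held 2 reads, both in heart 5, and 0 in each of the other 5 hearts, where a count of 0 allows up to 3 reads (0.535 to 0.756 CPM). The reads of miR-497 proper stand in antisense entries of that hairpin. The antisense entry labelled 3p overlaps the annotated miR-497a-5p by 14 bases and held 1352, 1465, 1197, 1295, 1923 and 1733 reads in hearts 1 to 6. The antisense entry labelled 5p overlaps miR-497a-3p by 17 bases and held 4, 3, 0, 3, 9 and 6 reads. These entries fall outside the sense rule and are given below as miR-497a-5p and miR-497a-3p, since without them the miR-195 cluster would lack its partner. They cover the annotated arms only in part and the counting rule is not given. The levels, ratios and arm shares of miR-497a may therefore be off. The only other antisense entry at a member hairpin, that of Mir195, held 1 read in all.

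Depth set what could be measured. The libraries held 3966169 to 6007322 counts, so 10 reads stand for 1.66 to 2.52 CPM (reads per 1000000 counts of the library). The reads carry no molecular identifiers, so intervals and floors cover counting error only. Of the 11 member entries, 10 averaged 10 reads or more. The heart muscle miRNAs on a fixed marker list (miR-133a-3p, miR-1a-3p, miR-208a-3p and miR-499-5p) held 9.41% to 10.6% of the counts. The erythroid markers (miR-451a and both arms of miR-144) ranged 2.60-fold, from 0.226% to 0.588%. The smooth muscle markers (miR-143-3p and miR-145-5p) ranged 1.73-fold, from 6.56% to 11.3%. The endothelial markers (both arms of miR-126a) ranged 1.16-fold, from 8.40% to 9.73%. miR-206-3p, the marker of skeletal muscle, had 1 read in all. Adapter ligation favours some RNA ends, so a ratio between different miRNAs is one of reads and not of molecules.

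The 11 sense entries held 1.59% ± 0.113 of the counts (mean ± SD, n = 6). The share was 1.64%, 1.59%, 1.42%, 1.53%, 1.76% and 1.62% in hearts 1 to 6. Heart 3 was the lowest and heart 5 the highest. Both smooth muscle markers were also highest in heart 5, but neither was lowest in heart 3. Their relation to the family share was not tested. The 5p arms made up nearly all of it (1.59% ± 0.113), and the 5 3p entries together held 0.00555% ± 0.000477. With the miR-497a reads the family stood at 1.62% ± 0.114.

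miR-16-5p, the most abundant member, was the 16th of 995 mature miRNAs by mean level. It held 88.2% ± 0.577 of the family with miR-497a. Its level was 14786, 14270, 12685, 13707, 15783 and 14675 CPM in hearts 1 to 6, with a mean of 14318 ± 1052. The highest heart stood 1.24-fold above the lowest.

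miR-195a-5p, the member best known from the postnatal heart, stood at 898, 995, 930, 986, 1124 and 964 CPM in hearts 1 to 6. Its mean was 983 ± 78.1 CPM, the 57th rank. miR-15a-5p stood at 489, 473, 401, 501, 517 and 432 CPM, with a mean of 469 ± 44.2 and the 72nd rank. These ranges did not overlap, and miR-195a-5p was 2.10-fold above miR-15a-5p (log2 ratio 1.07 ± 0.05, SE).

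miR-497a-5p stood at 284, 295, 283, 327, 320 and 309 CPM, with a mean of 303 ± 18.5. miR-15b-5p, the lowest of the 5p members apart from the miR-497b entry with its 2 reads, stood at 130, 130, 113, 93.8, 108 and 81.7 CPM, with a mean of 109 ± 19.4. Hearts 1 and 2 were the highest for miR-15b-5p and heart 6 the lowest. In the order miR-16, miR-195a, miR-15a, miR-497a and miR-15b, the ranges of neighbours did not overlap.

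**Figure D1:**
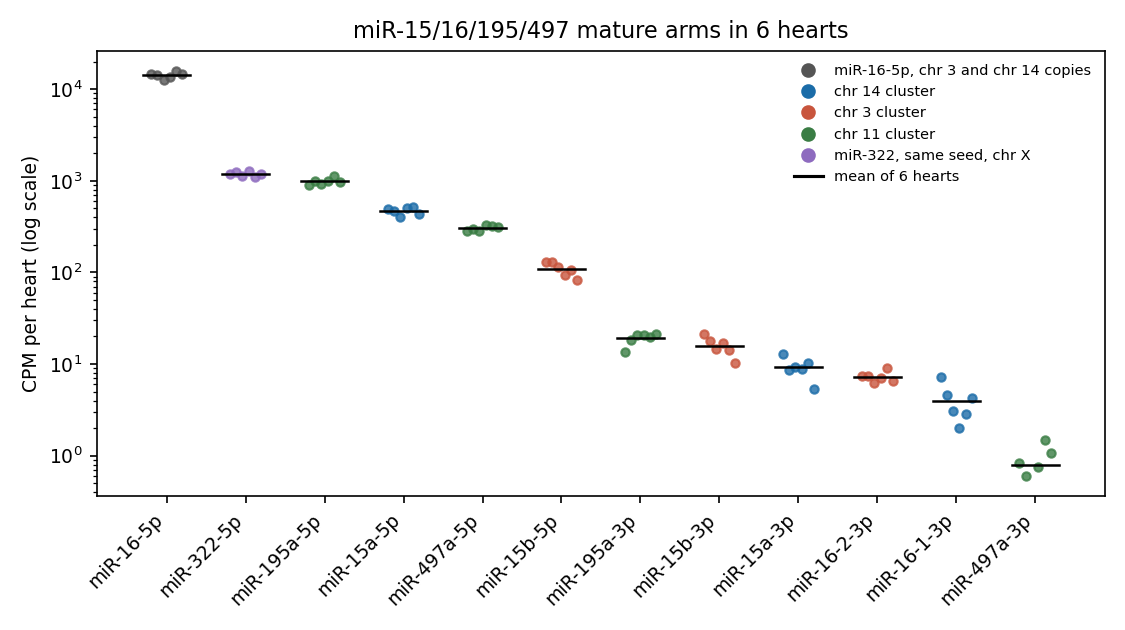
Level of each mature arm in each of 6 hearts (points, CPM on a log axis) and the mean (bars), coloured by genomic cluster. The 5p arms lie between 81.7 and 15783 CPM, above every 3p arm, and the heart without a miR-497a-3p read has no point.

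Each member pair was compared within hearts by an exact sign-flip permutation test (two-sided) of the 6 log2 ratios. There were 10 pairs of 5p and 15 pairs of 3p arms. The smallest p that 6 hearts allow is 0.031, or 0.034 after Benjamini-Hochberg adjustment over the 25 pairs, and 23 pairs reached it with the same direction in 6 of 6 hearts. The size of the ratio therefore says more than the p. The pairs with miR-497a-3p, at 0 to 9 reads per heart, are among the 23, and their ratios depend on the 0.5 reads added to both counts. For miR-16-2-3p over miR-16-1-3p, the direction in heart 1 rests on 35 against 34 reads.

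The ratios differed widely in size. Within the chromosome 11 cluster, miR-195a-5p was 3.24-fold above miR-497a-5p (log2 ratio 1.70 ± 0.03, SE), and the ratio ran only from 3.02 to 3.51 over the 6 hearts. The entry read as miR-497a-5p overlaps that arm only in part, so the ratio may be too high. miR-16-5p was 30.6-fold above miR-15a-5p, with a range of 27.3 to 34.0. Against miR-15b-5p it was 132-fold higher, with a range of 110 to 179. The counts of miR-16-5p hold both copies in each of these ratios. Between the clusters on chromosomes 14 and 3, miR-15a-5p was 4.32-fold above miR-15b-5p (log2 ratio 2.11 ± 0.11, SE), with 3.53 to 3.75 in hearts 1, 2 and 3 and 4.81 to 5.34 in hearts 4, 5 and 6. The libraries of hearts 1, 2 and 3 also had a larger share of counts in antisense entries (14.1% to 14.6%) than those of hearts 4, 5 and 6 (11.6% to 12.2%). Nearly all of these counts lie on hairpins annotated on the opposite strand, as those of miR-497a do, so they are counts of other miRNAs. The part of this difference in the ratio was not tested.

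All 3p arms were rare. miR-195a-3p averaged 19.1 ± 2.86 CPM, with 65, 92, 87, 82, 120 and 120 reads in hearts 1 to 6. miR-15b-3p averaged 15.8 ± 3.76 CPM, with 101, 89, 61, 67, 86 and 57 reads. These did not differ beyond their spread (ratio 1.23, log2 ratio 0.29 ± 0.23, SE, exact p = 0.281, adjusted p = 0.281, higher for miR-195a-3p in 5 of 6 hearts).

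miR-15a-3p averaged 9.21 ± 2.48 CPM, with 62, 43, 39, 35, 61 and 30 reads in hearts 1 to 6. miR-16-2-3p averaged 7.30 ± 1.03 CPM, with 35, 37, 26, 28, 55 and 37 reads. The pair was the other one that did not pass (ratio 1.23, log2 ratio 0.30 ± 0.16, SE, exact p = 0.125, adjusted p = 0.130, higher for miR-15a-3p in 5 of 6 hearts). miR-16-1-3p averaged 3.996 ± 1.82 CPM, with 34, 23, 13, 8, 17 and 24 reads. miR-497a-3p averaged 0.795 ± 0.499 CPM, close to the level of 3 reads.

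The chromosome 3 and chromosome 14 clusters each hold a miR-15 and a miR-16 hairpin, and which cluster gave more reads depended on the arm that was read. The 5p arm of miR-15 was higher from chromosome 14, since Mir15b gave only 18.9% ± 2.93 of miR-15a-5p and miR-15b-5p reads together. The 3p arm of miR-15 was higher from chromosome 3, where Mir15b gave 62.0%, 67.4%, 61.0%, 65.7%, 58.5% and 65.5% of the reads in hearts 1 to 6 (63.3% ± 3.40). The opposite directions held in 6 of 6 hearts, and the log2 ratio of chromosome 3 to chromosome 14 was 2.90 ± 0.15 (SE) higher for the 3p than for the 5p arm (exact sign-flip permutation p = 0.031, adjusted p = 0.0391 over 5 such differences).

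For miR-16 the 3p arms are the readout of the locus. Mir16-2 gave 50.7%, 61.7%, 66.7%, 77.8%, 76.4% and 60.7% of the 3p reads in hearts 1 to 6 (65.7% ± 10.3), or 1.93 reads per read of Mir16-1. In heart 1 the loci were nearly equal, with 35 and 34 reads. With 36 to 72 reads per heart the single values are loose, and the exact binomial 95% interval ran from 38.4% to 63.0% in heart 1 and from 60.9% to 89.9% in heart 4.

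The files book miR-16-5p far more unevenly. Mir16-2 holds 92.9%, 93.0%, 92.9%, 92.5%, 92.8% and 93.1% of the 5p reads (92.9% ± 0.230). This is 13.0 reads per read of Mir16-1, 6.74-fold more than the ratio of the 3p arms (log2 difference 2.75 ± 0.28, SE, exact sign-flip permutation p = 0.031, adjusted p = 0.0391, higher in 6 of 6 hearts). Against the 5p arms of miR-15 from the same clusters, the difference was 5.82 ± 0.11 on the log2 scale, with the same p. Both tests concern the booking of identical reads by a rule that is not given, so they do not speak for the output of the loci. The 3p ratio of miR-16 did not differ from the 3p ratio of miR-15 beyond the spread (log2 difference 0.17 ± 0.30, SE, exact p = 0.594, adjusted p = 0.594, higher in 3 of 6 hearts). The ratios of the miR-15 arms also differed from each other, by 2.90 ± 0.15 (SE) on the log2 scale with the 3p ratio higher. The 3p arms therefore do not settle the split of miR-16-5p. Since the 5p sequence is the same at both loci, the level of each cluster from the files rests on that booking. As booked, the cluster on chromosome 3 held 1.34% ± 0.0984 of the counts and that on chromosome 14 held 0.150% ± 0.0118. The cluster on chromosome 11 held 0.131% ± 0.00936 with miR-497a.

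**Figure D2:**
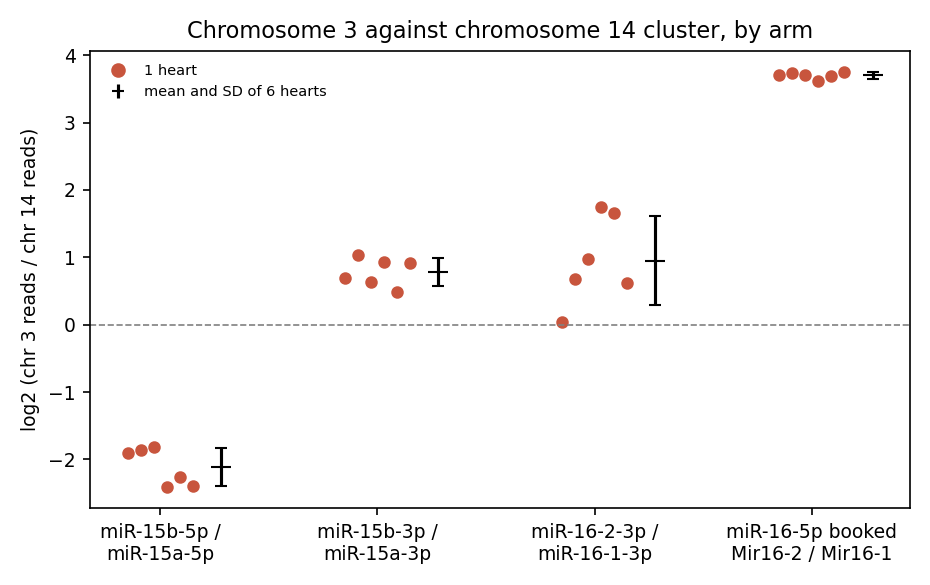
Log2 ratio of reads from the chromosome 3 cluster to reads from the chromosome 14 cluster in each of 6 hearts (points), with the mean and SD, for both arms of miR-15 and of miR-16. The ratio is below 0 for the 5p arm of miR-15, near 1 for both 3p arms and 3.70 for miR-16-5p as the files book it.

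miR-15a, miR-15b, miR-16 with both copies summed, miR-195a and miR-497a gave mainly 5p reads, to very different degrees. The arm shares of each miR-16 copy are not known, since the 5p reads cannot be placed, and miR-497b had only 2 reads. The 3p arm made up 12.6% ± 1.67 of the reads of miR-15b, 1.92% ± 0.468 of miR-15a, 1.91% ± 0.268 of miR-195a, 0.257% ± 0.156 of miR-497a and 0.0786% ± 0.0112 of miR-16 with both copies summed. The 3p share of miR-15b ran from 11.1% to 15.3% and never overlapped that of another hairpin here. The 3p shares of miR-15a (1.22% to 2.59%) and miR-195a (1.498% to 2.17%) overlapped.

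In the edgeR quasi-likelihood test of all hairpins, with the library as a block, a hairpin counted as called where its ratio was 2-fold or more and its adjusted p below 0.05. Of 213 hairpins 104 were called for more 5p reads, which is 48.8%, and 40.4% for more 3p reads. All 4 tested hairpins of the rule (miR-15a, miR-15b, miR-16 and miR-195a) and miR-497a were called for more 5p, with log2 ratios of 5.69 ± 0.14 for miR-15a, 2.80 ± 0.13 for miR-15b, 10.31 ± 0.14 for miR-16, 5.69 ± 0.13 for miR-195a and 8.46 ± 0.19 for miR-497a (SE). The largest of the 5 adjusted p was 2.97e-86. These p-values rest on a spread that edgeR pooled over the hairpins. Within the hearts alone, the exact sign-flip p was 0.031 for each, the smallest that 6 hearts allow. Over the 6 libraries there were 1265 reads of miR-16-5p per read of its 3p arms (exact binomial 95% interval 1137 to 1412) and 6.99 reads of miR-15b-5p per read of miR-15b-3p (6.33 to 7.72). Both intervals pool the reads of the 6 hearts, so they cover counting error and not the spread between hearts. The median fold of the 104 hairpins called for 5p was 42.0. miR-16 ranked 13th among them, miR-497a 23rd, miR-195a 47th, miR-15a 48th and miR-15b 86th.

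**Figure D3:**
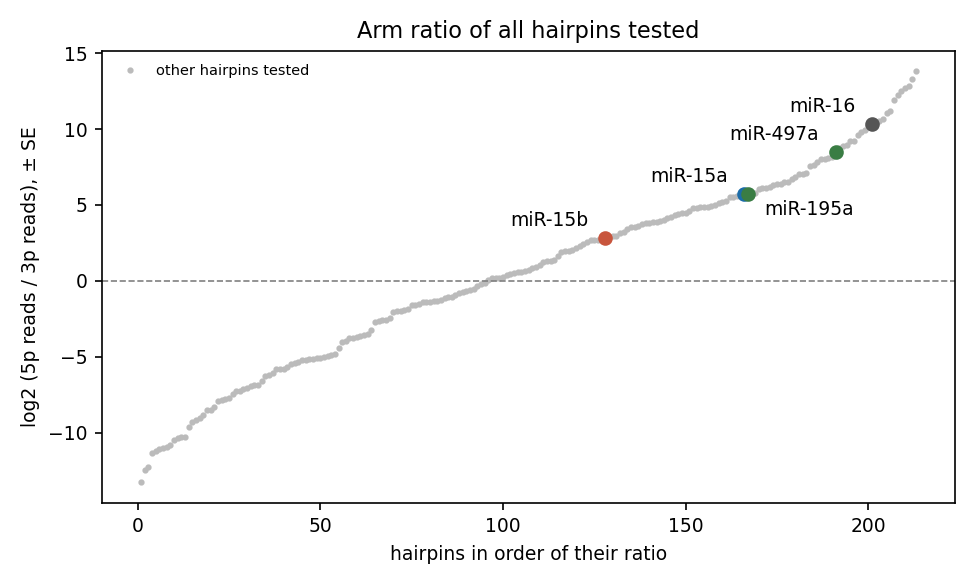
Log2 ratio of 5p to 3p reads for 213 hairpins in order of that ratio, with the hairpins of the family coloured and their SE drawn (smaller than most symbols). They span 2.80 for miR-15b to 10.31 for miR-16, all on the 5p side.

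The spread between hearts was small for most 5p members. The coefficient of variation (CV, SD over mean of CPM after TMM scaling) was 5.94% for miR-497a-5p, 8.15% for miR-195a-5p, 8.22% for miR-15a-5p, 8.89% for miR-16-5p and 18.7% for miR-15b-5p. Single hearts set part of this, since the CV was 3.89% for miR-15a-5p without heart 3 and 3.84% for miR-497a-5p without heart 6. The median over all 212 mature miRNAs that averaged 100 reads or more was 12.5%. Against counting noise (chi-square test of the 6 counts, Benjamini-Hochberg adjusted over all miRNAs averaging 10 reads or more), all 5 passed an adjusted p of 0.05, beside 87.7% of the 212. At that depth nearly every miRNA passed, so this is not particular to the family. Of the 10 mature members at 10 reads or more, miR-497a-5p included, 8 passed, beside 69.9% of all 355.

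miR-15b-5p varied most among the 5p members. It ranged from 86.4 CPM in heart 6 and 88.2 in heart 4 to 130 in heart 1 and 135 in heart 2 after TMM scaling, and 77.8% of the 212 miRNAs had a CV no larger than its own. Among the 3p arms, miR-16-1-3p had a CV of 46.4% (adjusted p = 0.00182 by the chi-square test) and was highest in heart 1 and lowest in heart 4. Its call and that of miR-15a-3p (CV 25.8%, adjusted p = 0.0143) were lost without heart 1, at adjusted p of 0.108 and 0.186. That of miR-15a-3p was also lost without heart 6 (adjusted p = 0.223). miR-15b-3p had a CV of 23.3% and passed (adjusted p = 0.00113). miR-16-2-3p (CV 13.5%, adjusted p = 0.660) and miR-195a-3p (15.7%, adjusted p = 0.0590) did not pass. The CV of miR-195a-3p was 6.90% without heart 1. Leaving out heart 2, 3, 4 or 5 took it past the threshold, with adjusted p from 0.0351 to 0.0406.

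**Figure D4:**
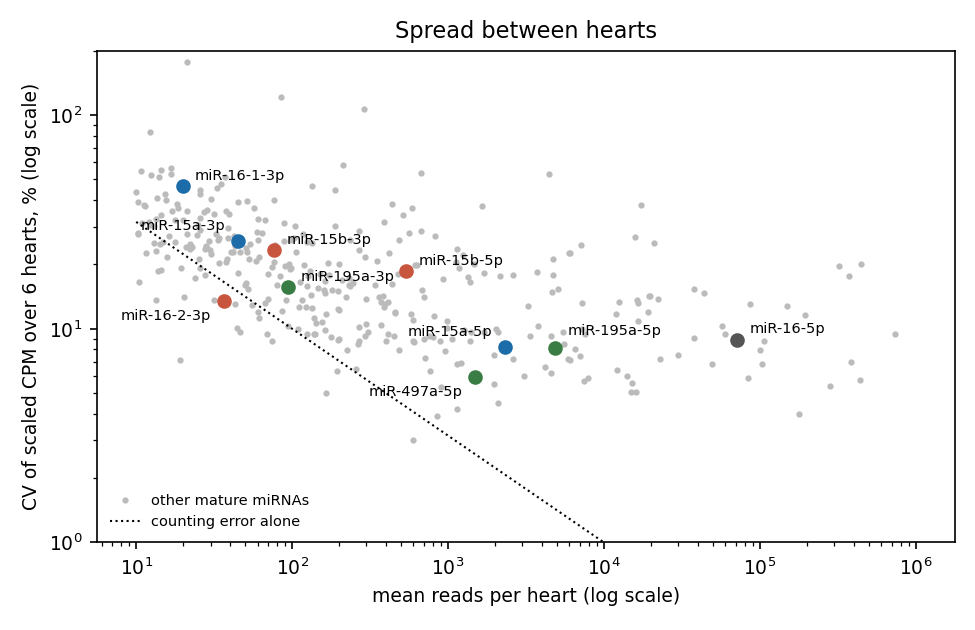
CV over 6 hearts against mean reads for 355 mature miRNAs (both axes log scale), with the family coloured by cluster and the dotted line marking counting error alone. miR-15b-5p at 18.7% lies above the other 5p members, which lie between 5.94% and 8.89%.

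miR-15b-5p was highest in the hearts where the erythroid miRNAs were highest. Of the leukocyte markers, both arms of miR-142a were also highest there. miR-150-5p was highest in heart 4, and miR-223-3p was highest in heart 1 and next in heart 4. Among the same 212 mature miRNAs, those most like it over the 6 hearts (Pearson r of log2 CPM after TMM scaling) were miR-451a (r = 0.94), miR-144-5p (0.94) and miR-342-3p (0.92). miR-451a, a red-cell miRNA cut by Ago2, stood at 5266, 4473, 3328, 1907, 3713 and 2171 CPM in hearts 1 to 6, and miR-144-3p, from the same transcript, at 425, 533, 289, 270, 273 and 225 CPM. Hearts 4 and 6 were the lowest for miR-451a and miR-15b-5p, and hearts 1 and 2 the highest.

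In 50 relations tested, 40 between members of different hairpins and 10 between the 5p members and erythroid miRNAs, 0 reached an adjusted p below 0.05. Before adjustment 4 did so by Pearson r and 3 by Spearman rho (two-sided exact permutation tests, n = 6). Among them, miR-15b-3p with miR-195a-3p had r = -0.83 (exact p = 0.0472, adjusted p = 0.440, rho = -0.83, exact p = 0.0583, r = -0.49 without hearts 1 and 6). miR-16-5p with miR-497a-5p had rho = 0.94 (exact p = 0.0167, r = 0.56, exact p = 0.221, r = 0.89 without hearts 3 and 4). For miR-15b-5p and miR-144-3p, r was 0.91 (exact p = 0.00417, adjusted p = 0.208), and rho was 1.00 (exact p = 0.00278, the smallest that 6 hearts allow). For miR-15b-5p and miR-451a, r was 0.94 (exact p = 0.0194, adjusted p = 0.440), and rho was 0.83 (exact p = 0.0583). Hearts 2 and 6 lay farthest from the middle of the miR-15b-5p values, and without them r was 0.88 with miR-144-3p and 0.96 with miR-451a. The erythroid relation was chosen for description with these results known. miR-16-5p, whose copy Mir16-2 lies in the same cluster as Mir15b, had r = 0.36 with miR-451a (exact p = 0.492, rho = 0.09, exact p = 0.919). It was -0.92 without hearts 3 and 4, so that it rests on those hearts. With miR-15b-5p, r was 0.11 for miR-16-5p (exact p = 0.781, rho = -0.31, exact p = 0.564, r = 0.39 without hearts 2 and 6). With miR-451a, r was 0.27 for miR-15a-5p (exact p = 0.637, rho = 0.54, exact p = 0.297, r = 0.80 without hearts 3 and 5). It was 0.04 for miR-195a-5p (exact p = 0.926, rho = -0.09, exact p = 0.919, r = 0.47 without hearts 1 and 5). It was -0.49 for miR-497a-5p (exact p = 0.331, rho = -0.20, exact p = 0.714, r = -0.25 without hearts 1 and 3). The difference between these correlations was not tested. The 4 leukocyte markers together ranged 1.39-fold, from 0.203% to 0.283% of the counts, but they did not move as one. miR-142a-3p stood at 139, 125, 80.9, 84.2, 62.1 and 54.6 CPM in hearts 1 to 6 and miR-142a-5p at 1667, 1468, 1187, 1229, 1048 and 906 CPM. Both arms were highest in hearts 1 and 2 and lowest in heart 6, as miR-15b-5p was. miR-150-5p, at 846, 936, 964, 1236, 783 and 992 CPM, was highest in heart 4, and miR-223-3p, at 176, 131, 141, 165, 139 and 109 CPM, was highest in heart 1. What part blood has in the level of miR-15b-5p was not tested, and in bulk tissue fewer cells of a type and less RNA per cell cannot be told apart.

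**Figure D5:**
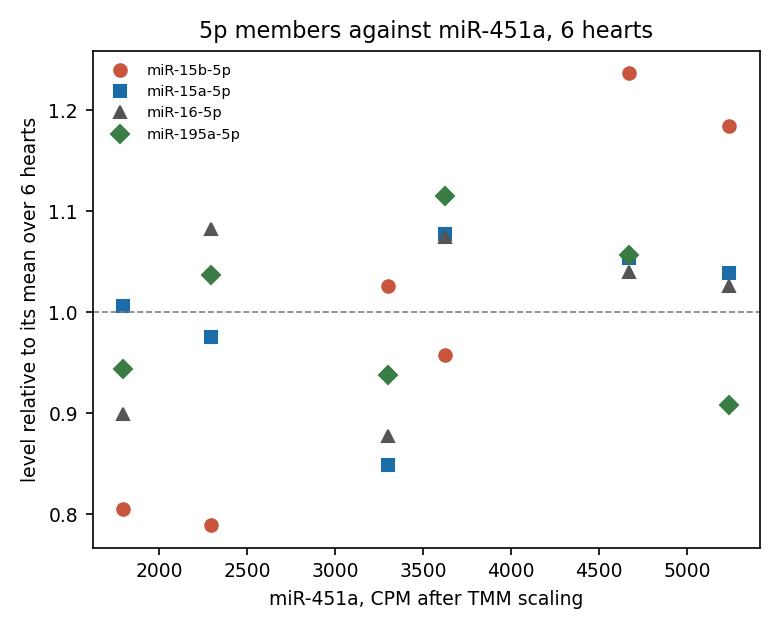
Level of 4 members in each of 6 hearts relative to their own mean (after TMM scaling) against the level of the erythroid miR-451a in the same heart. miR-15b-5p lies lowest in the hearts with little miR-451a and highest in those with most (r = 0.94), while miR-16-5p has r = 0.36.

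Co-variation of cluster mates was positive in each of 6 pairs, and no single pair passed. Over the 6 pairs from the same cluster, in which a locus-specific arm was read, the median r was 0.26 with a range of 0.13 to 0.73, and 0 had an unadjusted p under 0.05. The 27 pairs from different clusters had a median of -0.10 and a range of -0.87 to 0.85. Their highest, miR-15a-5p with miR-16-2-3p, lay above every same-cluster pair (r = 0.85, exact p = 0.0319, adjusted p = 0.440, rho = 0.94, exact p = 0.0167, r = 0.77 without hearts 3 and 5). The other 7 pairs hold miR-16-5p and were set apart, because its counts hold both copies. Their median r was 0.11, with a range of -0.13 to 0.68. The same members recur in several pairs, so the pairs are not independent. The difference between these sets of pairs was not tested. The highest of the same-cluster pairs was miR-195a-5p with miR-497a-5p (r = 0.73, exact p = 0.140, adjusted p = 0.621, rho = 0.77, exact p = 0.103, r = 0.68 without hearts 1 and 5). The 3p arms in these pairs have few reads, which limits any r.

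The nearest profiles differed among the other 5p members. For miR-16-5p these were miR-1943-5p (r = 0.90), miR-1a-3p (0.88) and miR-425-5p (0.85). miR-195a-5p was nearest to let-7b-5p (0.94), miR-652-3p (0.91) and miR-203-3p (0.89). For miR-15a-5p they were miR-29a-5p (0.89), miR-190a-5p (0.79) and miR-24-3p (0.76), and for miR-497a-5p miR-146a-5p (0.88), miR-1a-3p (0.85) and miR-26a-5p (0.76). Each was picked from 212 miRNAs for its r over 6 hearts and is given as a description.

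The same seed is carried by 1 further miRNA in the files, miR-322-5p from chromosome X. Its sequence is shown with that of its neighbour miR-503-5p, whose seed differs from it in the last base.
miR-322-5p: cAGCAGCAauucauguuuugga
miR-503-5p: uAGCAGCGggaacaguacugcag
Of 10 mature names with this seed in the RefSeq table, 6 had an entry in the files. Together they held 1.74% ± 0.113 of the counts. miR-16-5p made up 82.4% ± 0.918 of these reads, miR-322-5p 6.89% ± 0.615, miR-195a-5p 5.66% ± 0.354, miR-15a-5p 2.70% ± 0.175, miR-497a-5p 1.75% ± 0.118 and miR-15b-5p 0.632% ± 0.119. miR-322-5p stood at 1192 ± 68.1 CPM, with 1102 to 1279 over the hearts, a range that overlapped only that of miR-195a-5p. miR-503-5p stood at 1.498 ± 0.591 CPM.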

How the data were processed

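The authors deposited 1 file per library, with raw counts for each mature arm at each locus and strand, per the file headers. The submitters' processing notes name GRCm38 as the build and list DESeq and edgeR, with no step for either. Not given in the sources used here are the aligner, the counter and the placing of reads with more than 1 match. Antisense entries were counted where GENCODE M21 annotates a hairpin on the opposite strand (38 of 76), and the other 38 were left out of totals. Entries were named by RefSeq mature sequences on GRCm38.p6 (overlap of at least 10 bases, 838 of 1102 matched), otherwise by the files, and copies with the same mature name were summed.

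CPM used the counted total of each library. Arms were tested with edgeR 4.0.16 (DESeq2 1.42.0 as an alternative, R 4.3.3), with a mean of at least 10 reads over both arms. Ratios had 0.5 reads added to both counts. Correlations used a prior count of 1. The arm test and the chi-square test were tried on simulated data. Named genes are all members, the 3 most alike miRNAs (mean of at least 100 reads) of each 5p member, and carriers of the seed. The members and lists were chosen with earlier results of these data known. Alternatives covered scaling, filters, tools, pseudocounts and left-out hearts.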

Additional observations from a re-analysis of the deposited data

Results flagged for a closer look

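Of 32 sets of 6 values screened, 1 held a heart far from the other 5, and chance flags about 1 set in 20. miR-195a-3p stood at 13.7 CPM in heart 1 (65 reads) while the other 5 hearts lay at 18.5 to 21.4 CPM.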

How the results depend on the processing

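The family share was 1.84% with sense entries alone as the denominator, because 11.6% to 14.6% of the counts are antisense. Otherwise it lay between 1.56% and 1.63%, with the lowest value without heart 5 and the highest without heart 3. The count of hairpins called was 190 of 213 tested. Over its alternatives it lay between 141 of 153 (a mean of at least 100 reads) and 219 of 329 (no filter). All 5 hairpins of the family kept their call and direction wherever they were tested. Without the replicate block the count was 190, and no call of the family changed. No pairing between groups was possible because there is 1 group. TMM scaling with the arms as separate libraries moved the median log2 ratio of all hairpins from 0.74 to 0.06, and the calls for 5p from 104 to 98 of 191. The log2 ratios of the family fell as well, to 2.09 for miR-15b, 4.98 for miR-15a and miR-195a, 9.60 for miR-16 and 7.74 for miR-497a. The count of miRNAs varying beyond counting noise was 248 of 355 tested. Over its alternatives it lay between 187 of 212 (a mean of at least 100 reads) and 256 of 995 (no filter). This count was 191 of 347 when hearts 4 and 5 were left out, a setting added after seeing the data. Then miR-16-1-3p did not pass (adjusted p = 0.0855). Without heart 6, miR-497a-5p no longer passed (adjusted p = 0.0908). Without 1 of hearts 2, 3, 4 or 5, miR-195a-3p did. With DESeq2 size factors 7 of the 50 relations had an unadjusted p under 0.05, against 4, and 0 passed after adjustment under each scaling. The r of miR-15b-5p with miR-451a lay between 0.92 and 0.94 over the scalings. With each heart left out in turn, an alternative also added later, the log2 difference of the miR-16 booking lay between 2.57 and 2.93 against the 3p arms and between 5.75 and 5.87 against the miR-15 5p arms. With 5 hearts no p under 0.0625 is possible. Pseudocounts changed no call. Depth limits the 3p arms, with 8 to 34 reads of miR-16-1-3p and 0 to 9 reads of miR-497a-3p per heart.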
